A study of Mus musculus with 8 samples.

Results

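The genes described here are 10 interleukin genes chosen by name from the 38392 genes of the expression table: the type 2 cytokines Il4 and Il13, Il6, the interleukin 12 family subunits Il23a, Il12b, Il27 and Ebi3, and Il10, Il15 and Il16. Interleukins are secreted proteins through which immune cells instruct each other. Type 2 cytokines drive antibody class switching, mucus production and the recruitment of eosinophils, and eosinophils are themselves known to store and release several of these proteins. The interleukin 12 family is built from pairs of an alpha and a beta chain, and chains are shared between its members, so that the composition of the secreted protein depends on which subunit genes are transcribed together.

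RNA was sequenced from eosinophils sorted from bone marrow (BM) and from small intestine (SI), with 4 libraries of each tissue, and the study states that each group was 4 female mice. Mice of both groups were wildtype and of the strain C57/BL6. BM eosinophils were gated as CD11b+Ly6G-Ly6C-SiglecF+SSChi and came from flushed, red cell-lysed marrow, whereas the SI gate was CD11b+MHC-II-SiglecF+SSChi and followed removal of the epithelium, warm enzymatic digestion and enrichment on CD11b beads. Tissue and handling therefore changed together and cannot be told apart. Bulk RNA also cannot separate fewer cells of a type from less RNA per cell.

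The 8 libraries held 11508002 to 21289164 reads in genes. Levels are given as normalised counts, that is, whole reads recovered from the deposited values and divided by the size factor of the library. Differences are on the deposited log2 scale, SI minus BM with the standard error (SE), on which 1 unit is about a 2-fold change at high counts and a larger fold change at low counts, where the scale is compressed. Calls are made at a limma Benjamini-Hochberg adjusted p under 0.05 over all genes. The labelled cell type was checked against 12 eosinophil genes: all 12, among them Siglecf, Ccr3 and Il5ra, had reads in every library, and the list held 0.0353 to 0.0497% of reads in BM and 0.219 to 0.273% in SI. Of these 12 genes, 5 were called higher in SI and 6 lower, against 22.0% and 12.9% of all genes. Alox15 and Ccr3 had the most SI reads of the list, with 66769 and 55221, beside 758 and 363 in BM. A list of 12 neutrophil precursor genes, led by Mpo and S100a9, held 3.83 to 4.56% of reads in BM and 0.00512 to 0.00706% in SI, and its part in the BM values of the interleukin genes was not tested. Among single genes, the eosinophil granule genes Prg2 and Epx had 9028 and 1739 reads in BM and 497 and 71 in SI, whereas Mpo had 747919 in BM. The libraries labelled BM eosinophils thus held more reads of neutrophil precursor genes than of the eosinophil list, and Ly6c2 had 41371 reads in them although the gate was Ly6C-.

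Of the 10 interleukin genes, 9 were called higher in SI, against 22.0% of all genes, and Il15 was called lower, against 12.9%. The share over all genes includes many sparse genes: 22177 of the 38392 had a mean under 10 reads, against 2 of the 10. The groups did not overlap for 8 genes that were higher in SI, against 20.3% of all genes, and for Il15, against 13.9%. Only Il12b had overlapping groups. The median difference was 2.57 over the 10 genes and 0.37 over all genes tested, and the individual differences ran from -0.96 for Il15 to 7.78 for Il6. Scaling mattered for the smallest changes: centring each library on its median moved the median of all genes from 0.37 to -0.65 and the calls over all genes from 8465 higher and 4937 lower to 3902 and 12044. After centring, 6 of the 10 genes were called higher and Il15 was still called lower. In BM, Il15, Il16 and Ebi3 were well covered in every library, Il27 was lower, and the other genes were close to or at the detection limit.

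**Figure D1:**
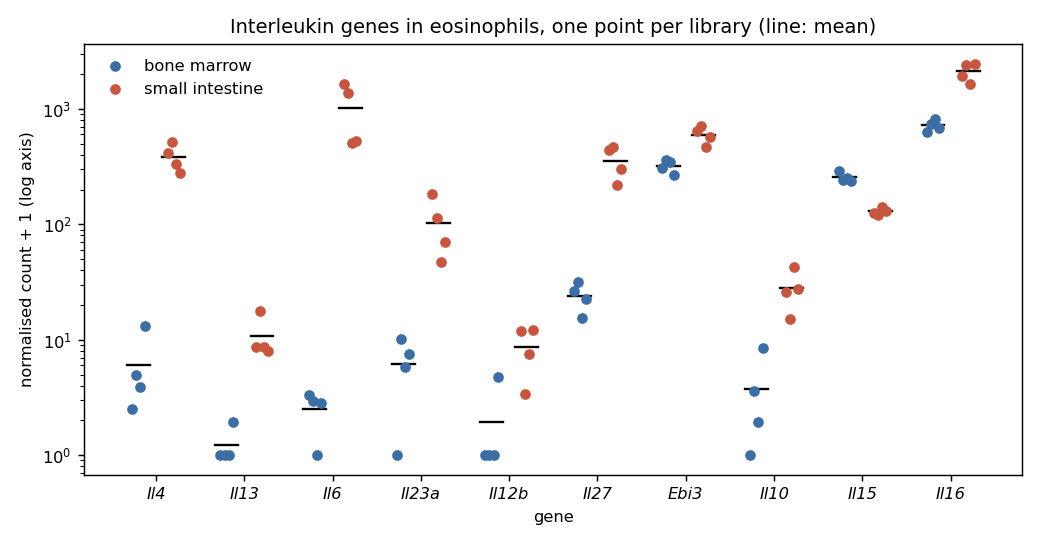
Normalised count plus 1 (log axis) of the 10 interleukin genes, with 1 point per library, BM in blue and SI in red, and a line at the mean of the 4 libraries. SI points lie above all BM points for 8 genes, below them for Il15, and overlap them for Il12b.

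Il4 and Il13, the type 2 cytokines of this group, were barely detectable in BM and were present in every SI library. Both proteins signal through receptors that contain the interleukin 4 receptor alpha chain, and both genes lie next to each other in the type 2 cytokine locus, Il4 (ENSMUSG00000000869) at chromosome 11, 53602982 to 53618669, and Il13 (ENSMUSG00000020383) at 53631324 to 53634702, both on the minus strand of GRCm38. The 250 bases upstream of their RefSeq starts (GRCm38.p6, minus strand, chr11:53618666-53618915 for Il4 and chr11:53634703-53634952 for Il13) are shown because these genes share a locus but differ widely in level. Capitals mark the NFAT core letters TGGAAA on either strand (TTTCCA on the other) and, in Il13, an overlapping pair of TATA box letters TATAAA, one on each strand.
Il4: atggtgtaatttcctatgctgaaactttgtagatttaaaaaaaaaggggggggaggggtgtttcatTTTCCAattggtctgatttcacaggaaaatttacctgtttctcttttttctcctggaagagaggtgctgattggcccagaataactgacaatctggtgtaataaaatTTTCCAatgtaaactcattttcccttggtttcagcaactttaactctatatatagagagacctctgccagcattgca
Il13: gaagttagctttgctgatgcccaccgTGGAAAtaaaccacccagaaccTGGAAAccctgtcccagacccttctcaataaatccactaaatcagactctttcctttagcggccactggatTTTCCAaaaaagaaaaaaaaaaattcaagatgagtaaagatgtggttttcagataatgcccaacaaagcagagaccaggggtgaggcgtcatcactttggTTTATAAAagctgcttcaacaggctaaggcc
NFAT proteins are the calcium-dependent factors that drive cytokine genes in activated lymphocytes and mast cells. The NFAT letters started at -184 and -77 from the start of Il4 and at -224, -202 and -131 from the start of Il13. The 6 interleukin genes that had a RefSeq window had 9 windows, as Il4 and Il16 had several each. The NFAT letters occurred in 6 of these 9 windows, in 5 of the 6 genes. They occurred in 21.4% of all 32851 windows of 300 bases (250 upstream and 50 downstream of a start). The exact letters TATAAA occurred in 1 of the 9 windows, that of Il13, and in 13.6% of all windows. Variants of the TATA box letters were not searched, so their absence does not show that a gene lacks a TATA box.

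Normalised counts of Il4 were 1.53, 3.91, 2.87 and 12.1 in BM_1, BM_3, BM_4 and BM_5. In SI_10, SI_11, SI_6 and SI_7 they were 417, 514, 332 and 275. All 4 SI libraries were thus far above the BM libraries, of which BM_5 was the highest, and the groups did not overlap. The mean rose from 5.10 ± 4.76 (SD, n = 4) to 384 ± 105 (SD, n = 4), a ratio of 75.4, and the difference was 5.66 ± 0.40 (SE; limma adjusted p = 1.57e-05). Leaving out each library in turn gave differences of 5.42 to 6.01.

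Il13 was a far rarer transcript. It had 1 read in BM_5 and 0 in BM_1, BM_3 and BM_4, whereas SI_10, SI_11, SI_6 and SI_7 had 7, 14, 7 and 5 reads. SI_11 was the highest of the SI libraries and every SI library exceeded every BM library. The difference was 2.49 ± 0.32 (limma adjusted p = 0.000464). The ratio of pooled normalised reads, 48.2, rested on the 1 BM read and had an exact 95% counting interval of 8.07 to 1961. Normalised per kb of exon, Il4 exceeded Il13 in every SI library, by ratios of 53.5, 30.4, 42.6 and 38.9 in SI_10, SI_11, SI_6 and SI_7. In SI the type 2 pair was therefore represented mainly by Il4 transcripts.

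The genes around Il4 and Il13 did not move as a block. Of the 9 genes examined in the type 2 locus, 7 were called higher in SI, 1 was called lower and 1 was not called. Over all genes, 22.0% were called higher and 12.9% lower. Between Il13 and Il5 lies Rad50, a DNA repair gene whose introns hold the locus control region of the type 2 cytokines. Its mean normalised count was 3326 ± 133 in BM and 1122 ± 269 in SI (SD, n = 4 each), a difference of -1.59 ± 0.22 (limma adjusted p = 0.000607). Il5, the eosinophil growth and survival factor, had 2 reads in all BM libraries together and 12 in SI. Its difference of 1.34 ± 0.42 was close to the threshold (limma adjusted p = 0.0394) and its groups overlapped.

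On the other flanks of the locus, Kif3a and Septin8, which encode a kinesin motor and a septin, differed by 1.88 ± 0.22 and 2.11 ± 0.37. Irf1, a transcription factor of the interferon response, had 305 ± 25.3 normalised counts in BM and 1696 ± 326 in SI (difference 2.44 ± 0.20, limma adjusted p = 3.91e-05). Csf2, which encodes GM-CSF and starts 631 kb from the start of Il4, had 1 read in BM and 11 in SI, and was called (1.49 ± 0.30, limma adjusted p = 0.00466). Il3, at 648.61 kb, had 3 reads in each tissue and was not called (0.28 ± 0.40, limma adjusted p = 0.603). The 3 haematopoietic cytokines of the locus, Il5, Csf2 and Il3, were thus close to the detection limit in both tissues, whereas Il4 had 1317 reads in SI. After centring each library on its median, Il5, Csf2 and Kif3a were no longer called (limma adjusted p = 0.522, 0.381 and 0.0701).

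**Figure D2:**
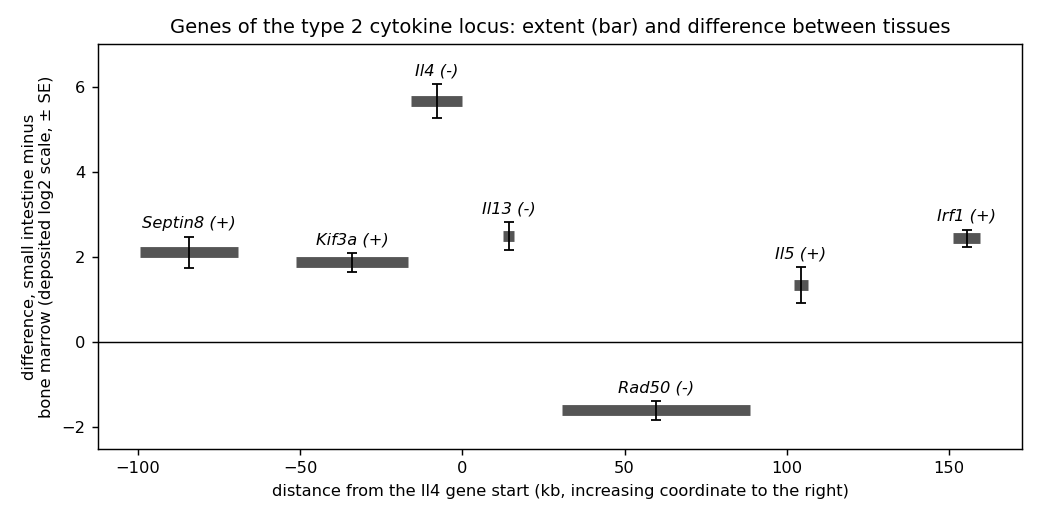
Difference between tissues (SI minus BM, deposited log2 scale, with SE as error bar) of 7 genes of the type 2 cytokine locus, drawn as bars over the extent of each gene at its distance in kb from the Il4 start, with strand in parentheses. Il4 stands at 5.66 between neighbours at 1.88 and 2.49, and Rad50 is the gene below 0.

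Il6 showed the widest change of the group. Interleukin 6 is an inflammatory cytokine that signals through the Il6ra and Il6st receptor chains and drives the acute phase response, plasma cell maturation and the choice between helper T cell fates. Il6 (ENSMUSG00000025746) lies at chromosome 5, 30013114 to 30019981, plus strand. The 250 bases upstream of its start (GRCm38.p6, plus strand, chr5:30012864-30013113) are shown for this reason, with capitals for the AP-1 letters TGANTCA at -249, the NFAT core at -109, the GATA letters TGATAA (here on the other strand as TTATCA) at -55 and the kappaB letters GGGANTTTC at -44.
Il6: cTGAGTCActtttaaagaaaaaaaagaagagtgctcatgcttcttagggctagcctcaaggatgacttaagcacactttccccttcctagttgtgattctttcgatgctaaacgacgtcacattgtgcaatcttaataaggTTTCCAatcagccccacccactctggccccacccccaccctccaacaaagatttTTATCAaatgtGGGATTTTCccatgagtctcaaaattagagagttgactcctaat
AP-1, NFAT and NF-kappaB factors are known activators of inflammatory cytokine genes. The kappaB letters were found in 1.11% of all windows and in 2 of the 9 windows of the interleukin genes, those of Il6 and Il16. The AP-1 letters were found in 7.81% of all windows and in 2 of the 9, in the same 2 genes. In Il16 the kappaB and AP-1 letters lay in different windows. The GATA letters occurred in 9.05% of all windows and in 2 of the 9, in Il6 and Il4.

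Reads of Il6 numbered 3, 3, 0 and 2 in BM_1, BM_3, BM_4 and BM_5, and 1493, 1148, 464 and 381 in SI_10, SI_11, SI_6 and SI_7. Normalised counts were at most 2.30 in BM, where the absence of reads in BM_4 allows a level of up to 2.87. In SI they were 1633, 1361, 506 and 528. SI_10 and SI_11 had the highest levels, and all SI libraries lay far above all BM libraries. The mean went from 1.53 ± 1.04 to 1007 ± 576 (SD, n = 4 each), a ratio of 659. On 8 BM reads, the exact 95% counting interval of the pooled ratio was 323 to 1476. The difference was 7.78 ± 0.51 (limma adjusted p = 1.13e-05), and it was 7.42 to 8.05 with each library left out in turn. Il6 ranked 2589 by mean normalised count among all genes in SI.

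The receptor side of interleukin 6 moved in both directions. Il6ra, the ligand-binding chain, had 448 ± 40.7 normalised counts in BM and 71.8 ± 17.0 in SI (difference -2.60 ± 0.22, limma adjusted p = 3.98e-05), the largest called fall among the 15 receptor genes examined. Il6st, the signalling chain gp130 shared by the whole interleukin 6 family, rose by 1.39 ± 0.28, but was not called after centring each library on its median (0.37, limma adjusted p = 0.473). A list of 12 genes known to respond to tissue dissociation, such as Fos and Dusp1, held 0.00744 to 0.00920% of reads in BM and 0.560 to 0.716% in SI. All 12 genes were called higher in SI, against 22.0% of all genes. SI_10, which had the highest share of this list, also had the highest Il6 level, and the part of dissociation in the Il6 result was not tested.

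Among the interleukin 12 family, the alpha chain genes Il23a and Il27 rose while the beta chain gene Ebi3 differed by less than 1 log2 unit and the beta chain gene Il12b stayed near the detection limit. Il23a (ENSMUSG00000025383, chromosome 10, 128296139 to 128298752, minus strand) encodes the p19 chain, which forms interleukin 23 with the Il12b product p40 and maintains interleukin 17-producing lymphocytes of the gut. Normalised counts of Il23a were 0, 9.13, 4.78 and 6.51 in BM_1, BM_3, BM_4 and BM_5. In SI_10, SI_11, SI_6 and SI_7 they were 182, 113, 45.8 and 69.3. The lowest SI library was above the highest BM library, and the SI libraries differed strongly among themselves. The difference was 3.82 ± 0.65 (limma adjusted p = 0.00188), with means of 5.11 ± 3.84 and 102 ± 59.6 (SD, n = 4 each).

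Il12b (ENSMUSG00000004296, chromosome 11, 44400063 to 44414033, plus strand) encodes p40, the chain shared by interleukins 12 and 23. It had 4 reads in BM_5 and none in the other BM libraries, and 10, 2, 6 and 8 reads in SI_10, SI_11, SI_6 and SI_7. Normalised counts were up to 3.72 in BM and 2.37 to 11.1 in SI, so SI_11 lay below BM_5. The difference was 1.98 ± 0.51 (limma adjusted p = 0.0161), and the pooled ratio was 9.49 with an exact 95% counting interval of 3.29 to 37.4. This call was lost without BM_1 (adjusted p = 0.0529 in limma), BM_3 (0.0574), BM_4 (0.0521), SI_10 (0.0706) or SI_7 (0.0601), and after centring each library on its median (0.0619). The 250 bases upstream of Il12b (GRCm38.p6, plus strand, chr11:44399813-44400062) are shown beside those of the more abundant cytokine genes, with capitals for the NFAT core at -239 and -60.
Il12b: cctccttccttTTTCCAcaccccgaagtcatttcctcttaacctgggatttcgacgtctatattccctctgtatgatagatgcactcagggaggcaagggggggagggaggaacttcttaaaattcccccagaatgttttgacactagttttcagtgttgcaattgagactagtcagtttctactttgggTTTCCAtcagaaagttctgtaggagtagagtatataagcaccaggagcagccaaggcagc

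Il23a exceeded Il12b per kb of exon by 14.5, 41.6, 6.13 and 5.47 times in SI_10, SI_11, SI_6 and SI_7. In BM the ratio could be formed in BM_5 only, where it was 1.53. The 2 chains of interleukin 23 were therefore unequal at the RNA level in every SI library, with p40 the scarcer.

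Il27 (ENSMUSG00000044701, chromosome 7, 126589010 to 126594941, minus strand) encodes p28, which with the Ebi3 product forms interleukin 27, a cytokine known for restraining effector T cells and inducing interleukin 10. Normalised counts of Il27 were 25.3, 30.7, 14.4 and 21.4 in BM_1, BM_3, BM_4 and BM_5. They were 440, 466, 217 and 301 in SI_10, SI_11, SI_6 and SI_7. SI_6 was the lowest SI library and still well above BM. The mean rose from 22.9 ± 6.86 to 356 ± 117 (SD, n = 4 each), a difference of 3.73 ± 0.32 (limma adjusted p = 4.25e-05). The exons of Il27 share 103 bases with Apobr on the opposite strand, a lipoprotein receptor gene with 2647 reads in BM and 28468 in SI. At the mean read density of Apobr, 103 bases would hold 72.1 reads in BM and 776 in SI, beside the 118 and 1211 reads counted for Il27, and whether reads of the shared stretch were counted for Il27 is not given in the sources used here.

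Ebi3 (ENSMUSG00000003206, chromosome 17, 55952640 to 55957022, plus strand) was well expressed in both tissues. Its normalised counts were 306, 359, 346 and 269 in BM_1, BM_3, BM_4 and BM_5, and 647, 705, 465 and 569 in SI_10, SI_11, SI_6 and SI_7. The groups did not overlap, but the distance between them was small compared with that of Il27. The difference was 0.88 ± 0.21 (limma adjusted p = 0.0107), although centring each library on its median turned it to -0.14 (limma adjusted p = 0.805). Ebi3 shares 270 exonic bases with the antisense gene Gm16712, which had 499 reads in BM and 1154 in SI.

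Set against each other per kb of exon, the partners of Ebi3 exchanged rank between the tissues. The ratio of Il27 to Ebi3 was 0.0468 to 0.0964 in BM and 0.528 to 0.769 in SI. Il12a, which encodes p35, the partner of p40 in interleukin 12 and of Ebi3 in interleukin 35, had a mean of 145 ± 14.5 normalised counts in BM and 8.16 ± 4.23 in SI (difference -3.74 ± 0.27, limma adjusted p = 1.9e-05). Its reads were 165, 238, 165 and 152 in BM_1, BM_3, BM_4 and BM_5 and 13, 6, 4 and 5 in SI_10, SI_11, SI_6 and SI_7. The ratio of Il12a to Ebi3 was 0.281 to 0.357 in BM and 0.00637 to 0.0149 in SI. Il12a was thus 3.0 to 6.60 times as abundant as Il27 per kb in the BM libraries, and 0.00916 to 0.0194 times in the SI libraries. These ratios are descriptions of RNA levels, and no protein was measured.

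**Figure D3:**
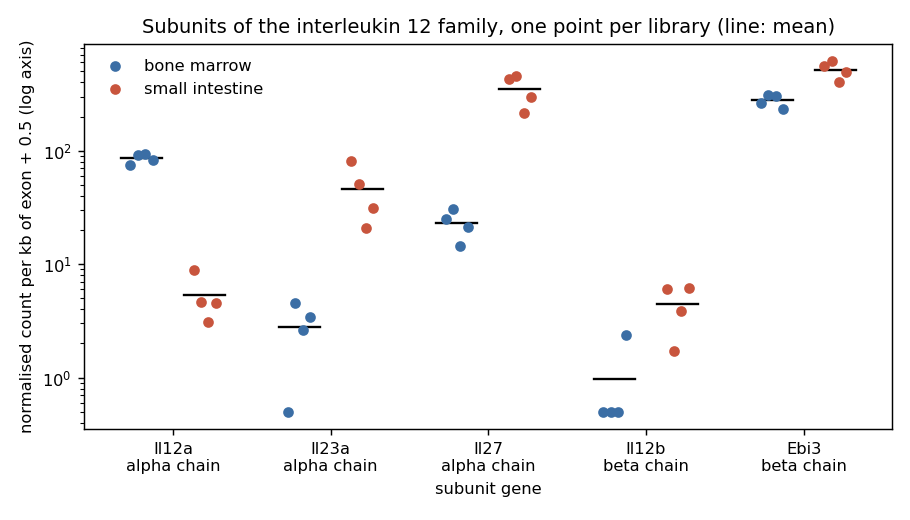
Normalised counts per kb of exon plus 0.5 (log axis) of the alpha chain genes Il12a, Il23a and Il27 and the beta chain genes Il12b and Ebi3, with 1 point per library, BM in blue and SI in red, and a line at the mean. Il12a is high in BM and low in SI, Il27 and Il23a the reverse, and Ebi3 is high in both.

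Il10 (ENSMUSG00000016529, chromosome 1, 131019845 to 131024974, plus strand) encodes the anti-inflammatory cytokine that limits responses to gut microbes. Normalised counts were 0, 2.61, 0.957 and 7.44 in BM_1, BM_3, BM_4 and BM_5 and 25.2, 14.2, 41.5 and 26.3 in SI_10, SI_11, SI_6 and SI_7. Levels were low in both tissues, yet each SI library exceeded each BM library. The difference was 2.64 ± 0.53 (limma adjusted p = 0.00455). Unlike most of the other interleukin genes, Il10 was highest in SI_6.

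Il15, the only gene of the group called lower in SI, encodes a cytokine that sustains natural killer cells, memory CD8 T cells and intraepithelial lymphocytes and is usually presented to them bound to its receptor chain Il15ra. Il15 (ENSMUSG00000031712) lies at chromosome 8, 82331632 to 82403222, minus strand. Normalised counts were 288, 240, 253 and 236 in BM_1, BM_3, BM_4 and BM_5, and 125, 120, 141 and 130 in SI_10, SI_11, SI_6 and SI_7. Replicates were close to each other and the groups were clearly apart. The mean was 254 ± 23.7 in BM and 129 ± 9.05 in SI (SD, n = 4 each), 1.97 times higher in BM, and the difference was -0.96 ± 0.17 (limma adjusted p = 0.00265). Il15ra fell as well, from 421 ± 29.3 to 163 ± 35.5 (difference -1.37 ± 0.21, limma adjusted p = 0.000993).

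Il16 (ENSMUSG00000001741, chromosome 7, 83642825 to 83745726, minus strand) had the highest normalised count of the group in both tissues. Interleukin 16 is a chemoattractant for CD4-bearing cells, and is cut from a larger precursor protein. Normalised counts were 634, 737, 811 and 688 in BM_1, BM_3, BM_4 and BM_5, and 1921, 2409, 1653 and 2467 in SI_10, SI_11, SI_6 and SI_7. All SI libraries were above all BM libraries. The difference was 1.54 ± 0.21 (limma adjusted p = 0.000555), but 0.52 after centring each library on its median, where it was not called (limma adjusted p = 0.306). Exons of Il16 share 1202 bases with Stard5 on the opposite strand, which had 1281 reads in BM and 2995 in SI, against 3546 and 7081 for Il16 (at the mean density of Stard5, 1202 bases would hold 282 and 659 reads), and 166 bases with 2310044K18Rik, which had 4 and 23 reads. Cd4, which encodes the coreceptor bound by interleukin 16, had 16.0 ± 7.11 normalised counts in BM and 126 ± 16.3 in SI (difference 2.82 ± 0.33, limma adjusted p = 0.00027).

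The 13198 genes compared averaged 10 or more reads, with predicted genes, RIKEN clones and pseudogenes left out. Those whose deposited values followed Il16 most closely over the 8 libraries were Prkce, Rab43 and Zup1 (Pearson r of 0.997 each). For 1834 genes r exceeded 0.95, and the distance between the 2 tissues dominates this measure. The same measure, added for Il4 and Il6 after their values were seen, named Cd55, Art3 and Tctex1d4 for Il4 (0.998 to 0.999) and Cebpb, Nbeal1 and Nnat for Il6 (0.997 to 0.998).

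Placed on a scale of normalised counts per kb of exon, the order of the genes differed between the tissues. In BM it was Ebi3 (277 ± 35.7), Il15 (112 ± 10.5), Il16 (91.3 ± 9.57) and Il27 (22.4 ± 6.72; SD, n = 4 each), whose ranges over libraries did not overlap from one to the next, followed by Il4 at 4.16 ± 3.88 and the remaining 5 genes at lower means with overlapping ranges. In SI, Ebi3 (517 ± 90.1), Il6 (415 ± 237), Il27 (349 ± 115), Il4 (313 ± 85.2) and Il16 (269 ± 49.9) followed each other. The ranges of neighbours overlapped, so the order of neighbours was not resolved, but Ebi3 (403 to 611) lay above Il16 (210 to 314). Below Il16 a gap followed. Then came Il15 (57.0 ± 4.0), Il23a (45.5 ± 26.5), Il10 (20.5 ± 8.55) and Il13 (8.06 ± 3.82), of which neighbours overlapped, and Il12b was lowest at 3.93 ± 2.11. The order depends on the gene model: with the length of the longest transcript, Il4 stood at 635 and Il16 at 402 in SI.

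The other cytokine genes give the context. The list held 31 further interleukin, colony-stimulating factor, interferon and interleukin 6 family genes and left out the interleukin 1 family. Of these 31 genes, 10 were called higher in SI, 2 were called lower and 19 were not called, and 24 had a mean under 10 reads. Over all genes, 22.0% were called higher and 12.9% lower. The median difference of the 31 genes was 0.78, against 0.37 for all genes. The 3 most abundant in SI were Csf1, the growth factor of macrophages, and Clcf1 and Osm, which belong to the interleukin 6 family. The mean of Csf1 was 49.3 ± 14.7 normalised counts in BM and 1613 ± 97.2 in SI (difference 4.98 ± 0.26, limma adjusted p = 3.66e-06). Clcf1 showed the largest rise, from 15.0 ± 8.50 to 1001 ± 202 (5.88 ± 0.40, limma adjusted p = 1.35e-05), and Osm rose from 30.9 ± 12.6 to 657 ± 232 (4.26 ± 0.35). In BM the most abundant were Il12a, Tslp and Csf1. Tslp, an epithelial cytokine that primes type 2 responses, fell from 58.5 ± 13.9 to 6.21 ± 5.52 (difference -2.85 ± 0.39, limma adjusted p = 0.000585). The 2 cytokine genes called lower were Il12a and Tslp. After centring each library on its median, 7 of the 31 genes were called higher and 5 lower.

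**Figure D4:**
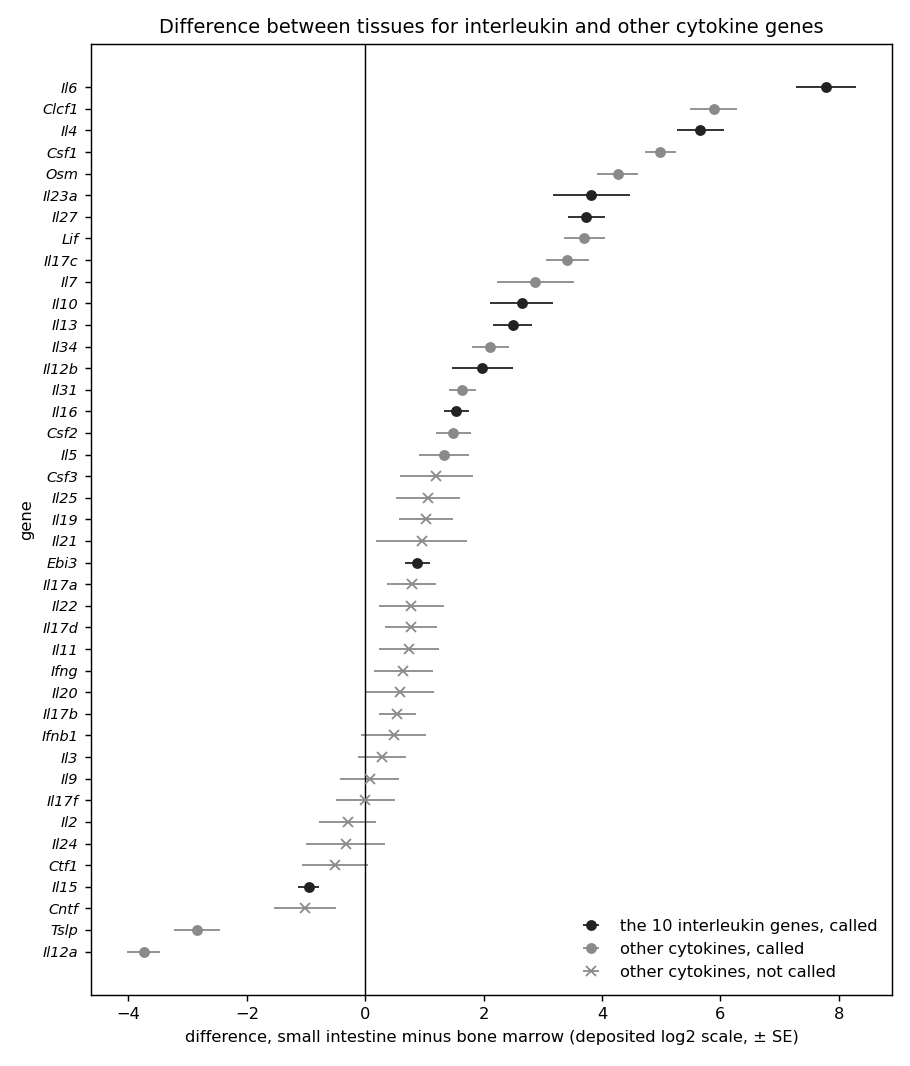
Difference between tissues (SI minus BM, deposited log2 scale, with SE) of the 10 interleukin genes in black and 31 other cytokine genes in grey, sorted by size, with circles for genes called at a limma adjusted p under 0.05 and crosses for the rest. Il6 is at the top at 7.78 and Il12a at the bottom at -3.74, with Il15 as the black point below 0.

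Receptor chains for the 10 cytokines also differed. Of 15 receptor genes, 9 were called higher in SI, 2 (Il6ra and Il15ra) were called lower and 4 were not called, with a median difference of 1.28. Over all 38392 genes, 22.0% were called higher and 12.9% lower, and 3902 and 12044 genes after centring. After centring each library on its median 5 were called higher and 5 lower, since Il4ra, Il6st, Il12rb2 and Il23r lost their calls and Il2rb, Il12rb1 and Il27ra were called lower, and quantile normalisation gave 9 higher and 5 lower. Il10ra, the ligand-binding chain for interleukin 10, rose most, with 10.9 ± 4.97 normalised counts in BM and 1537 ± 332 in SI (difference 6.78 ± 0.32, limma adjusted p = 2.2e-06), and Il10rb, its signalling partner, from 210 ± 34.1 to 1837 ± 555 (3.06 ± 0.29). For the type 2 cytokines, Il4ra was 445 ± 8.18 in BM and 1092 ± 94.4 in SI (1.28 ± 0.17, limma adjusted p = 0.000481), with no call after centring each library on its median (0.27, limma adjusted p = 0.6). Il13ra1 rose from 4.38 ± 3.20 to 579 ± 47.1 (6.55 ± 0.51, limma adjusted p = 2.87e-05) and kept its call after centring (5.54, limma adjusted p = 5.35e-09). Il2rg rose by 2.22 ± 0.26 (limma adjusted p = 0.000243) and kept its call as well (1.21, limma adjusted p = 0.0303). Il13ra2 was not called (limma adjusted p = 0.504). The receptor genes with the highest levels were Il10rb, Il10ra and Il4ra in SI and Il6ra, Il4ra and Il15ra in BM.

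Within SI the libraries did not vary alike from gene to gene. SI_10 and SI_11 had higher levels of Il6, Il23a, Il27, Ebi3 and Il4 than SI_6 and SI_7, whereas Il10 and Il15 were highest in SI_6. SI_6 also had the highest shares of epithelial genes (0.257% of reads, against 0.0382 to 0.113% in the other SI libraries), of B and plasma cell genes (0.178%) and of macrophage, monocyte and dendritic cell genes (0.173%). The 10 interleukin genes together held 0.0355% of reads in SI_10, 0.0332% in SI_11, 0.0220% in SI_6 and 0.0275% in SI_7. They held 0.00903 to 0.0112% in BM.

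**Figure D5:**
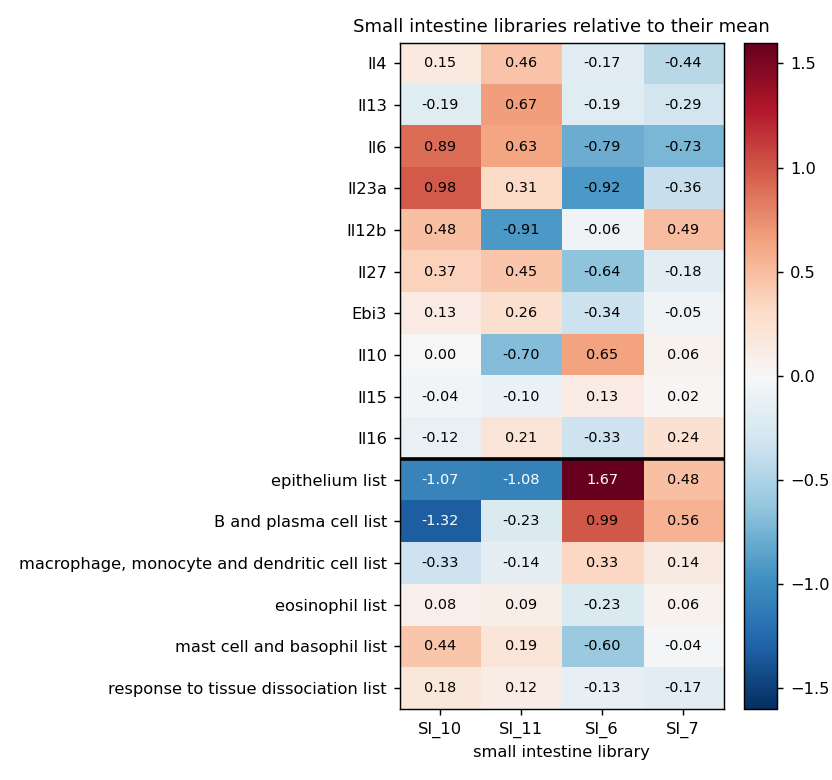
Each SI library relative to the mean of the 4 SI libraries in log2 units (deposited values for the 10 interleukin genes above the line, log2 of the share of reads for 6 gene lists below it), red above and blue below the mean. SI_6 is lowest for Il6, Il23a, Il27, Ebi3 and Il16 and highest for Il10, Il15 and the epithelial list (1.67).

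Lists of genes of other cell types had reads in both tissues. The share of a list does not show by itself that cells of that type were present. A list of 14 mast cell and basophil genes held 0.0385 to 0.0511% of reads in BM, with reads for 12 of the 14, and 0.0543 to 0.112% in SI, with reads for all 14. In SI its reads came mostly from Hdc, Kit and Gata2, of which Hdc had 39012 reads, while its protease genes moved in both directions. Of the 14 genes, 4 were called higher in SI and 5 lower, against 22.0% and 12.9% of all genes. The basophil proteases Mcpt8 and Prss34 had 9 and 5 reads in SI and 542 and 225 in BM, and both were called lower. The mast cell proteases Mcpt1 and Tpsab1 had 30 and 12 reads in SI and 1 and 0 in BM, and both were called higher (limma adjusted p = 0.00166 and 0.00268). Cpa3, also a mast cell protease, had 48 reads in SI and 188 in BM and was called lower (limma adjusted p = 0.0118). Kit and Ms4a2 had 4067 and 15 reads in SI and 15014 and 479 in BM, and both were called lower. Mcpt2 had 20 reads in SI and 3 in BM and Mcpt4 had 2 and 0, and neither was called. T cell and innate lymphoid cell genes (14, all with reads in both tissues) held 0.000806 to 0.00135% in BM and 0.00256 to 0.00332% in SI, and Cd3e had 38 reads in BM and 69 in SI. For comparison, Il4 had 24 reads in BM and 1317 in SI. The lists of B and plasma cell genes (10, all with reads) and of macrophage, monocyte and dendritic cell genes (18, all with reads) held 0.0132 to 0.0178% and 0.0624 to 0.0804% in BM and up to 0.178% and 0.173% in SI. Single genes weighed heavily in these shares. In the macrophage, monocyte and dendritic cell list, Adgre1 had the most reads in SI (46235) and Ly6c2 in BM (41371). Adgre1 is not confined to macrophages, as the study used EMR1, the human protein of this gene, among its markers of human eosinophils. Igha had the most SI reads of the B and plasma cell list (45732). Epithelial genes (12) held 0.00142 to 0.00179% in BM and 0.0382 to 0.257% in SI, and fibroblast and endothelial genes (12) 0.00301 to 0.00412% and 0.0524 to 0.0593%, all of them with reads in both tissues. The part of other cell types in the interleukin values was not tested.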

How the data were processed

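Gene expression was measured by single-end RNA sequencing of amplified cDNA in 8 libraries, 4 from bone marrow and 4 from small intestine. The authors aligned the reads to GRCm38 (Ensembl release 86) with nf-core/rnaseq, counted them per gene and deposited variance-stabilised values of DESeq2 (R 4.0.3) on a log2 scale. The aligner, the strand setting and the handling of multi-mapping reads are not given in the sources used. Column names gave the tissue but matched no single sample, so the libraries are named by column.

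The transformation was inverted to whole reads (100% of values within 0.05 of a whole number) and size factors (0.721 to 1.53). Values were compared with limma 3.58.1 in R 4.3.3 over all 38392 genes, constant prior, no filter, with Benjamini-Hochberg adjustment, 2-sided, and the procedure was tested on simulated data. P-values measure the spread between libraries. Intervals and the floor for 0 reads (3 reads) cover counting error only. Gene models came from GENCODE M21, where all 38392 identifiers matched, and promoter windows from RefSeq. Windows were found for 6 of the 10 genes, 9 windows in all. The named genes were the 10 interleukins, the 3 most abundant genes and the largest called rise and fall of each comparison list, all genes of the type 2 locus, leading marker genes, the 3 genes most like the most abundant interleukin and genes with overlapping exons. Other genes were named after their values were seen. The interleukin genes and the lists were chosen with earlier results of these data known. Alternatives were 7 other settings and leaving out each of the 8 libraries in turn.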

Additional observations from a re-analysis of the deposited data

Results flagged for a closer look

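In 38 groups of 4 libraries (each interleukin gene and each marker list in each tissue), the highest or lowest library was compared with Dixon's tabulated 95% critical value, which chance exceeds in about 1 in 20 groups, and 6 groups exceeded it. The gap of the extreme library to its nearest neighbour, as a fraction of the range of the group, was 0.907 for Il6 in BM, where BM_4 had 0 reads and the others 2 to 3. It was 1 for Il13 in BM and 1 for Il12b in BM, where BM_5 alone had reads, 1 and 4 of them. For Il13 in SI it was 0.896, with SI_11 at 14 reads and the others at 5 to 7. Of the marker lists, the eosinophil list stood apart in BM_5 (0.869), with 0.0497% of reads, and in SI_6 (0.877), with 0.219%. The gaps for Il6, Il13 and Il12b in BM rest on 0 to 4 reads.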

How the results depend on the processing

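Over 10 interleukin genes and 15 alternatives, 137 of 150 differences kept their direction and their side of the threshold, 12 lost the call and 1 turned direction. Il4, Il6, Il13, Il23a and Il27 were called under all 15 alternatives. Ebi3 was the gene that turned, to -0.14 after centring each library on its median. Testing for a difference over 1 on the log2 scale (limma treat) left 5 interleukin genes higher and 0 lower (also 0 at an unadjusted p under 0.05, with 1 lower, Il15, in limma without that bound), 6 receptor genes called, and 3460 genes higher and 1616 lower among all genes. Centring on the median gave 3902 genes higher and 12044 lower among all genes, and quantile normalisation gave 5954 and 7032, with 9 of the interleukin genes still called higher. Over all genes the median was 0.37, and it became 0.89 with voom, -0.65 after centring and -0.03 after quantile normalisation. Leaving out each library in turn gave 8 to 9 interleukin genes higher and 1 lower. No paired analysis was possible because no replicate number is common to BM and SI. Depth limits Il13 and Il12b, with 1 and 4 reads in all BM libraries together.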
